A study of Mus musculus with 9 samples.

Results

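The SAG course of Experiment 1 consists of 3 single-cell RNA libraries of NIH3T3-CG, embryonic fibroblasts of the mouse kept as a cell line, taken after 0, 17 and 30 h of SAG, a small molecule agonist of Smoothened. Barcodes with at least 5000 unique molecular identifiers (UMIs, each counting 1 captured transcript molecule) and at most 10% of UMIs in mitochondrially encoded genes were taken as cells. This gave 2089 of the 18733 such cells in the 9 libraries of the series: 933 at 0 h, 571 at 17 h and 585 at 30 h. The question was which genes were higher or lower at 17 h than at 0 h, and again at 30 h than at 17 h. Each time has 1 library, so the differences have no replicate check and none was tested. Levels are CPM, the UMIs of a gene over the summed cells scaled by the total of the library, and the 95% intervals given for levels, ratios and shares cover counting error only. All 3 groups are the same line, released from 6-well plates with trypsin, and the labels mention no Dox for them, although they do for Experiment 2. No library was labelled as kept without SAG to the later times, so time in SAG cannot be told apart from time in culture or from the handling of each harvest.

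In the absence of ligand, the receptor Patched (Ptch1) keeps Smoothened inactive and Gli proteins are processed at the primary cilium into repressors. Ligand, or an agonist such as SAG, activates Smoothened and turns Gli2 and Gli3 into activators. Gli1 and Ptch1 are direct targets in nearly every responding cell type, the first feeding forward and the second restraining the pathway. NIH3T3 fibroblasts are a standard model of this response because they carry primary cilia and respond when grown dense and low in serum.

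The summed cells held 29144225 UMIs at 0 h, 19422658 at 17 h and 23441213 at 30 h, with medians of 29327, 33279 and 40905 UMIs per cell. No kept barcode was shared between libraries. Markers of the named cell type were present: at least 3 of the fibroblast markers were found in 99.8%, 99.1% and 98.2% of cells thinned to 10000 UMIs. Markers of smooth muscle or myofibroblasts reached that number in 1.31%, 0.184% and 0.358% of cells, with a summed level of 201, 140 and 174 CPM, and 9 other classes of cell did so in none, which at 3 counts allows up to 0.327%, 0.552% and 0.537%. The mitochondrial limit removed 26.5%, 43.5% and 37.2% of the barcodes with at least 5000 UMIs. A limit of 5% left only 120, 67 and 69 cells.

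The 17 h library stood apart by the composition of its transcripts. In genes split into 5 equal bins by the GC content of their transcripts, the median log2 ratio of 17 h to 0 h went from 0.0041 in the lowest bin to -0.2571 in the highest, and the ratio of 30 h to 17 h went the other way, from -0.1162 to 0.1693. Between 30 h and 0 h the bins stayed between -0.1024 and -0.0805. A similar course was seen by transcript length, from -0.1834 in the shortest bin to 0.0678 in the longest at 17 h against 0 h. The part of this shift in the results was not tested. Ratios were therefore also centred on genes of like GC content and length, a choice made after seeing the data, and values after this centring are given as such.

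**Figure D1:**
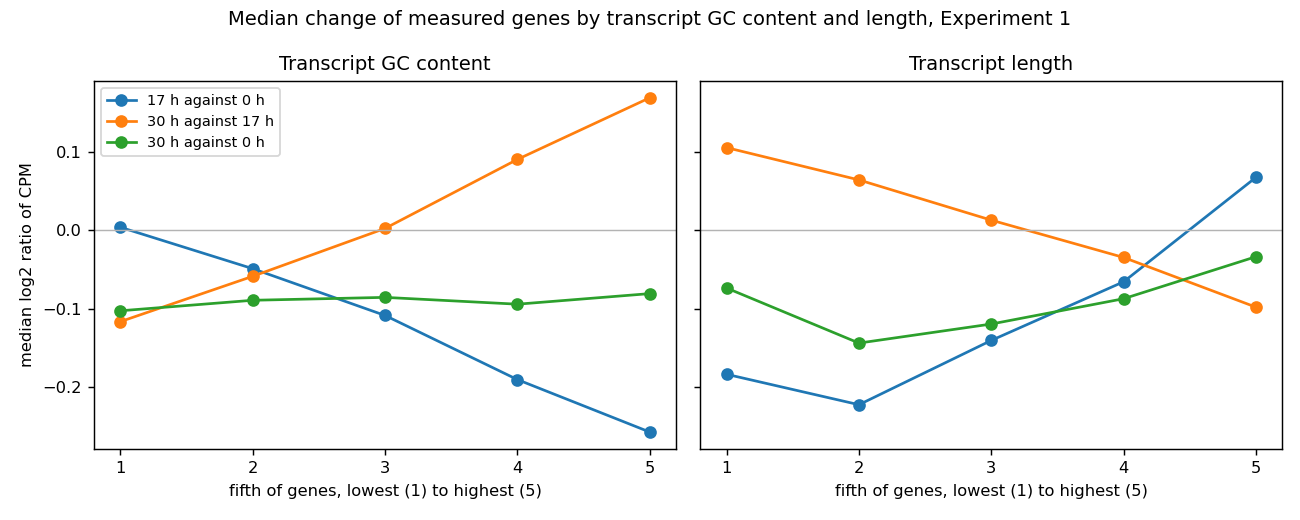
Median log2 ratio of CPM (vertical axis) over measured genes split into 5 bins by transcript GC content (left) and length (right), 1 line per comparison. The lines of 17 h against 0 h and 30 h against 17 h slope in opposite directions with GC content, while 30 h against 0 h stays between -0.1024 and -0.0805.

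A gene was counted as measured with at least 5 CPM in either library compared, and as past the fold with a ratio of at least 1.5 in either direction. A gene under 5 CPM in 1 of the 2 libraries enters only through the other, so the filter sets its direction. Of 9057 genes measured at 17 h and 0 h, 127 (1.40%) were past the fold upwards and 411 (4.54%) downwards, with a median log2 ratio over all genes of -0.1138. Of 8940 at 30 h and 17 h, 60 (0.671%) were higher and 100 (1.12%) lower, with a median of 0.0029. Of 9039 at 30 h and 0 h, 61 (0.675%) were higher and 303 (3.35%) lower, with a median of -0.0898. These shares and medians are the background for every count of list members below. The split into higher and lower depended on the scaling: 23.6% of the genes past the fold at 17 h against 0 h were higher as counted, 39.5% with TMM factors, 48.9% with median-of-ratios factors and 56.3% after centring by GC content and length. For 30 h against 17 h these shares were 37.5%, 43.3%, 36.5% and 20.2%, and for 30 h against 0 h 16.8%, 34.2%, 36.1% and 39.2%. Since the first 2 comparisons share the 17 h library, a high or low count there moves them in opposite directions.

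**Figure D2:**
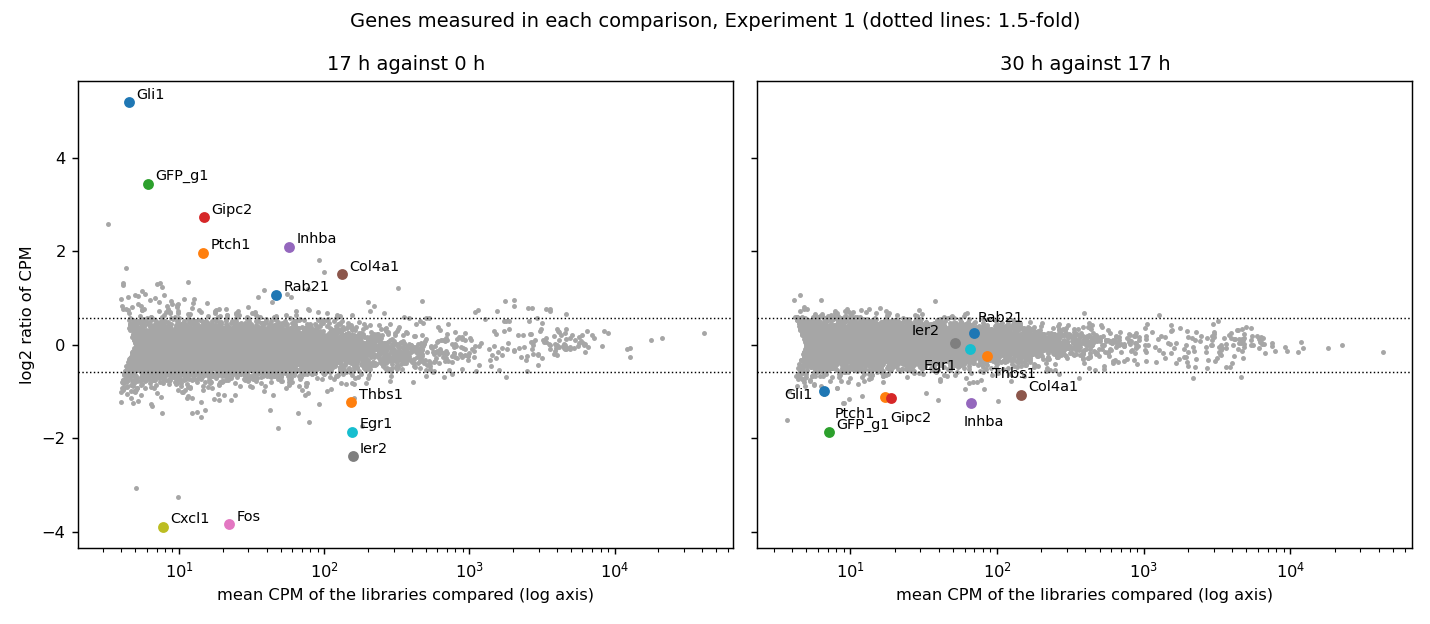
Log2 ratio of CPM (vertical axis) against the mean CPM of the libraries compared (log axis), 1 point per measured gene, for 17 h against 0 h (left) and 30 h against 17 h (right). Gli1, GFP_g1, Gipc2 and Ptch1 lie far above the dotted 1.5-fold line on the left and below the lower one on the right, whereas Ier2 and Egr1 lie low only on the left.

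Gli1 and Ptch1 were highest at 17 h and lower again at 30 h. Gli1, the transcription factor of the pathway whose own gene it induces (chromosome 10, 127329882 to 127341974, minus strand of mm10), had 7 UMIs at 0 h, 170 at 17 h and 103 at 30 h, or 0.24, 8.75 and 4.39 CPM. It was thus near absent before SAG, 36.4-fold higher at 17 h (17.3 to 92.0) and 1.99-fold lower at 30 h than at 17 h, where it was still 18.3-fold above 0 h (8.57 to 46.6). Ptch1 (chromosome 13, 63508328 to 63573598) had 175, 455 and 255 UMIs, or 6.00, 23.4 and 10.9 CPM. It was 3.90-fold higher at 17 h (3.27 to 4.67), then 2.15-fold lower, and at 30 h 1.81-fold above 0 h (1.49 to 2.21). GFP_g1, a feature added to the reference that the labels do not describe, had 30, 218 and 72 UMIs, or 1.03, 11.2 and 3.07 CPM. Its course had the same order, 10.9-fold higher at 17 h (7.42 to 16.6) and then 3.65-fold lower.

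Among 30 genes listed as Hedgehog targets, 13 were measured at 17 h and 0 h. Of these, 4 were higher and 1 lower, and 6 had a log2 ratio below 0, with a median of 0.04 against -0.11 over all genes. Over all genes 1.40% were higher and 4.54% lower. The summed level of the list was 625, 589 and 536 CPM and was not highest at 17 h. That sum includes Gas1, described below, whose fall at 17 h was larger than the fall of the sum. The other two of the 4 were Gipc2, a PDZ-domain protein, with 3.91, 25.8 and 11.7 CPM, and Hsd11b1, which regenerates active glucocorticoid, with 0.926, 5.56 and 1.83 CPM. Gipc2 was 6.61-fold higher at 17 h (5.38 to 8.17) and Hsd11b1 6.00-fold (3.91 to 9.52). Gli1, Gipc2 and Hsd11b1 were under 5 CPM at 0 h, so they could enter the count at 17 h only as higher. All 4 genes higher at 17 h were lower at 30 h than at 17 h, 2.21-fold for Gipc2 and 3.03-fold for Hsd11b1. None of the 13 measured there was higher. Gli1 and Hsd11b1 were under 5 CPM at 30 h, so they could enter there only as lower. The one lower gene was Gas1, a co-receptor for the ligand that the pathway represses, with 147, 76.0 and 76.8 CPM; it was 1.93-fold lower at 17 h and near that level at 30 h. Hhip, a ligand-binding inhibitor, had 0 UMIs in all 3 libraries, so nothing is shown about it at this depth.

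The components that carry the signal had log2 ratios of 17 h to 0 h between -0.82 and 0.59, against -0.95 to 5.19 for the listed targets. Of 28 measured components, 1 was higher and 2 lower at 17 h, beside 1.40% and 4.54% of all genes. Of 27, 1 was lower at 30 h than at 17 h, beside 1.12% of all genes. Counts this small cannot be told from the shares over all genes. After centring by GC content and length the counts lower were 0 and 0. Smo, which encodes Smoothened, had 57.1, 43.7 and 51.4 CPM, and Sufu, the inhibitor that holds Gli proteins in the cytoplasm, 9.09, 8.29 and 9.30 CPM. Gli2, the main activator, had 4.84, 7.26 and 5.16 CPM, at the edge of the fold at 17 h (1.5, 1.18 to 1.91). Gli3, the main source of repressor, had 10.7, 10.3 and 6.61 CPM, level at 17 h and 1.56-fold lower at 30 h than at 17 h. The log2 ratio of Gli3 at 30 h to 17 h was under the fold after centring (-0.55) and turned to 0.17 with the mitochondrial limit at 5%. Of 33 measured genes of ciliary transport none was past the fold at 17 h, nor was any of 34 at 30 h against 17 h. With shares over all genes this low, a count of 0 says little about a list of this size.

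**Figure D3:**
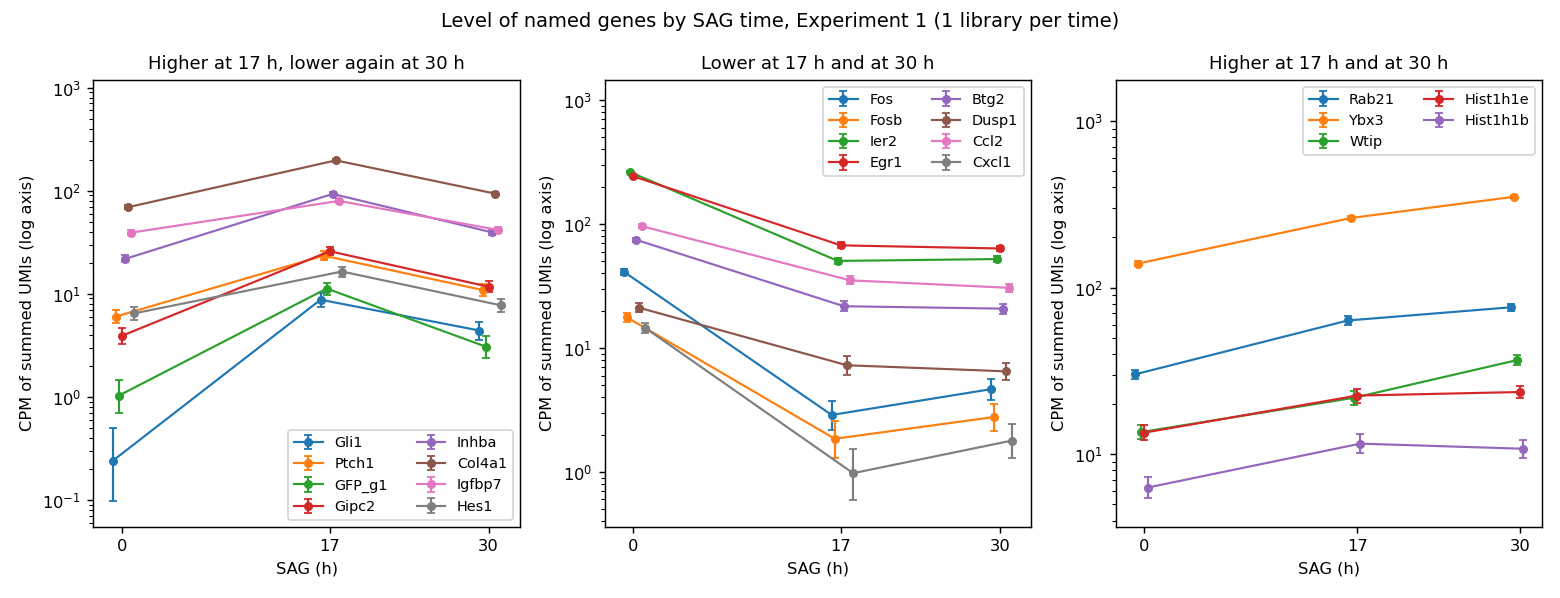
CPM of summed UMIs (log axis) at 0, 17 and 30 h of SAG for named genes, with bars for exact Poisson 95% intervals of counting error. Gli1 went from 0.24 to 8.75 and 4.39 CPM, Ier2 from 263 to 50.4 and 52.2, and Ybx3 from 139 to 262 and 350.

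Several genes outside the Hedgehog list were also highest at 17 h. Inhba, a subunit of activin A, had 21.8, 92.9 and 39.4 CPM, 4.27-fold higher at 17 h (3.90 to 4.68) and 2.36-fold lower at 30 h than at 17 h, still 1.81-fold above 0 h (1.64 to 2.01). Col4a1 and Col4a2, the chains of basement membrane collagen IV, had 69.1, 197 and 93.7 CPM and 47.0, 107 and 55.6 CPM. They were 2.85-fold (2.70 to 3.01) and 2.29-fold (2.14 to 2.45) higher at 17 h, and were the only 2 of 11 measured basement membrane genes past the fold there. The 2 genes lie head to head and overlap only from 11312805 to 11312826 of chromosome 8, where their counts are less certain. Igfbp7, a secreted binding protein for insulin-like growth factors, had 39.1, 79.5 and 41.6 CPM; it overlaps Polr2b, so its reads are less certain. Hes1, a repressor best known as a Notch target, had 6.45, 16.4 and 7.72 CPM, and Sox9, a transcription factor of cartilage and progenitor cells, 28.8, 43.7 and 21.4 CPM. Each of these 6 genes was higher at 17 h than in either of the other libraries. Vegfa, the angiogenic growth factor, was also highest at 17 h, with 56.8, 97.1 and 58.1 CPM, as was Lactb, a mitochondrial serine protease, with 23.5, 53.3 and 34.2 CPM, at 30 h 1.45-fold above 0 h.

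Many of these differences were smaller in cells with few mitochondrial UMIs. In the few cells under 5%, the log2 ratio of 17 h to 0 h was 0.39 for Vegfa in place of 0.77, 0.42 for Ptch1 in place of 1.96, 1.15 for GFP_g1 in place of 3.45, 0.17 for Inhba in place of 2.09, 0.53 for Col4a1 in place of 1.51 and 0.12 for Col4a2 in place of 1.19. It turned below 0 for Igfbp7 (-0.57), Hes1 (-0.14) and Sox9 (-0.23). Gipc2 kept most of its difference at 2.19 in place of 2.72, as did Lactb at 0.96 in place of 1.18, and Gli1 did not reach 5 CPM there. With no limit the ratio was larger, 2.35 for Ptch1, 2.57 for Inhba and 1.86 for Col4a1. For 30 h against 17 h at the 5% limit it was -0.30 for Ptch1 in place of -1.11, and above 0 for Igfbp7 (0.11) and Sox9 (0.21). The part of mitochondrial content in these values was not tested.

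The share of cells with a UMI followed the summed levels. In cells thinned to 10000 UMIs, at least 1 Gli1 UMI was found in 0.109% of 917 cells at 0 h (0.00276 to 0.606), 8.29% of 543 at 17 h (6.11 to 10.9) and 3.22% of 559 at 30 h (1.92 to 5.04). Without thinning these shares were 0.75%, 22.2% and 13.8%. Ptch1 was found in 6.00%, 17.7% and 10.0% of thinned cells, and GFP_g1 in 1.2%, 10.1% and 3.58%. All 3 were most often found at 17 h. The libraries hold no second cell type to set the share that free RNA gives. The 0 h share is the untreated level of Gli1 and GFP_g1. It does not measure the free RNA of the 17 h and 30 h libraries, which was not estimated. Inhba was found in 15.7%, 39.96% and 22.5% of cells, and at least 5 of its UMIs in 0.218%, 4.97% and 0.894%. For Col4a1 a UMI was found in 43.0%, 63.0% and 47.8% of cells and at least 5 UMIs in 0.436%, 13.6% and 1.61%, so the 17 h library held most of the cells with many copies of either.

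**Figure D4:**
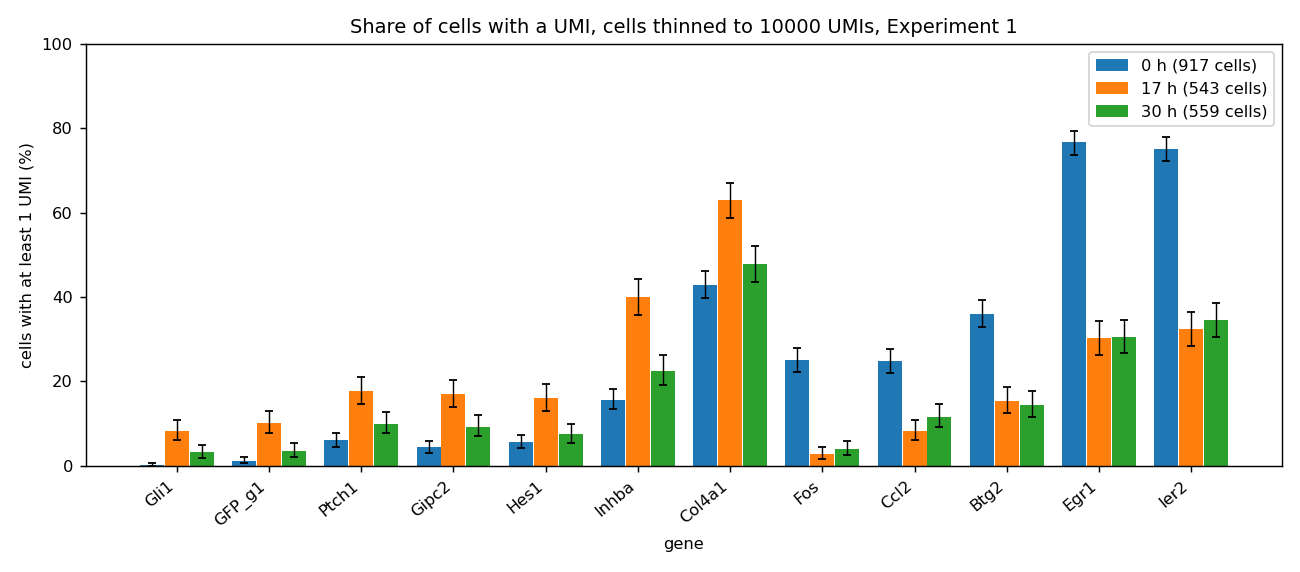
Percent of cells with at least 1 UMI of each gene at 0, 17 and 30 h, in cells thinned to 10000 UMIs, with exact binomial 95% intervals. Gli1 was found in 0.109%, 8.29% and 3.22% of cells and Fos in 24.97%, 2.76% and 3.94%.

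The immediate early genes, which encode transcription factors and phosphatases induced within minutes of a stimulus without new protein synthesis, were high at 0 h and low at both later times. Of 31 listed, 25 were measured, and 17 of these were lower and 1 higher at 17 h than at 0 h, with a median log2 ratio of -0.78 against -0.11 over all genes. Over all genes 4.54% were lower and 1.40% higher. After centring by GC content and length 11 early genes were lower, with a median of -0.54. At 30 h 16 of 25 were below 0 h by the fold (median -0.83), whereas only 1 of 21 was lower at 30 h than at 17 h (median -0.08).

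Fos, the partner of Jun in the factor AP-1, had 1201, 56 and 109 UMIs, or 41.2, 2.88 and 4.65 CPM. It was 14.3-fold lower at 17 h (10.9 to 19.0) and 8.86-fold lower at 30 h than at 0 h. Fosb, its relative, had 17.7, 1.85 and 2.77 CPM. Fos and Fosb were under 5 CPM at both later times, so they could enter the counts against 0 h only as lower. Jun had 282, 84.4 and 90.3 CPM, 3.33-fold lower at 17 h; its count may include reads of the transcript Junos on the other strand. For all 3 both later libraries lay far below 0 h, with Fos 1.61-fold higher at 30 h than at 17 h (1.16 to 2.27). Ier2, a nuclear protein of the early response, had 263, 50.4 and 52.2 CPM, 5.21-fold lower at 17 h (4.87 to 5.57). Egr1, a zinc finger factor of the growth factor response, had 243, 67.3 and 63.5 CPM, and Cyr61, a matricellular target of YAP, 120, 38.0 and 35.0 CPM. With the mitochondrial limit at 5% the log2 ratio at 17 h was -0.85 for Jun in place of -1.74, -0.73 for Cyr61 in place of -1.65, and -2.14 for both Fos and Fosb in place of -3.84 and -3.25. Klf4, a Krüppel-like factor, named after its values were seen, was the 1 listed gene past the fold upwards at 17 h, with 49.7, 77.5 and 59.9 CPM. The low level at 17 h was seen across cells: in thinned cells Ier2 was found in 75.1%, 32.4% and 34.5%, Egr1 in 76.7%, 30.2% and 30.6% and Fos in 24.97%, 2.76% and 3.94%. The median thinned cell held 18 UMIs of the listed genes at 0 h, 10 at 17 h and 9 at 30 h.

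A further pair of early genes is shown with promoters because both carry a full cAMP response element, the palindrome bound by CREB and related factors. Btg2, an antiproliferative cofactor of mRNA deadenylation (chr1:134075170-134079120), had 74.6, 21.7 and 20.8 CPM, and was 3.43-fold lower at 17 h (3.09 to 3.82). Dusp1, a phosphatase that inactivates MAP kinases (chr17:26505590-26562128), had 616, 141 and 152 UMIs, or 21.1, 7.26 and 6.48 CPM, and was 2.91-fold lower at 17 h (2.42 to 3.52). Both genes were high at 0 h and low at both later times. The span given for Dusp1, from the GENCODE annotation, reaches upstream past the RefSeq start used for its promoter. Over that span Dusp1 overlaps Ergic1 on the other strand, and strand use in the counting is not given in the sources used here. With the mitochondrial limit at 5% the log2 ratio of Dusp1 was -0.34 in place of -1.54. The 250 bases before each RefSeq start on GRCm38.p6, read 5′ to 3′ on the minus strand of chr1:134079156-134079405 and chr17:26508473-26508722, are printed with TGACGTCA in capitals; its first base lies 166 bases before the start in Btg2 and 143 in Dusp1.
Btg2: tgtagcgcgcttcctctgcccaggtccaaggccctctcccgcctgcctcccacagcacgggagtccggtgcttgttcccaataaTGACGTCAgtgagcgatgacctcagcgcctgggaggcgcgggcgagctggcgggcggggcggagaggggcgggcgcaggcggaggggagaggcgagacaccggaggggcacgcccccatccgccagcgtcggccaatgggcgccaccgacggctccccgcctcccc
Dusp1: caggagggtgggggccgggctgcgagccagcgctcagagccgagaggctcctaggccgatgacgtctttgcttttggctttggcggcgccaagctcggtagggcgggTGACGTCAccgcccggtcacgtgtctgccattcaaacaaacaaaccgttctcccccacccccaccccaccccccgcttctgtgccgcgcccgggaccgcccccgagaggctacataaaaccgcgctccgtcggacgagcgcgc

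Promoters were found for 24 of the 31 early genes. TGACGTCA, searched on both strands, lay in a promoter of 3 of these genes (the third was Maff) and in 508 of 32851 of all promoters (1.55%). A listed gene counts once if any of its promoters matches, whereas the share of all counts each promoter. The AP-1 motif TGACTCA lay in 0 of 24 and in 4.46% of all promoters, and the serum response motif known as the CArG box in 3 of 24 (Egr2, Dusp5 and Zfp36) and in 1.47% of all. Promoters were found for 15 of the 30 listed Hedgehog targets. The Gli motif GACCACCCA lay in a promoter of 0 of these 15 genes and in 0.225% of all promoters. TGACGTCA and TGACTCA both open with TGAC, and neither holds the other. A match describes the letters of this window and shows no binding.

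Chemokines and targets of NF-kB were also highest at 0 h. Of 25 listed, 12 were measured and 9 were lower at 17 h, with none higher and a median log2 ratio of -0.73. Over all genes 4.54% were lower, with a median of -0.11. After centring 6 of the listed genes were lower. At 30 h 6 of 12 were lower than at 0 h. Ccl2, which attracts monocytes, had 95.9, 35.2 and 30.6 CPM, and Ccl7, a related ligand, 130, 53.9 and 61.4 CPM. They were 2.73-fold and 2.41-fold lower at 17 h. Cxcl1, which attracts neutrophils, had 14.5, 0.978 and 1.79 CPM, 14.8-fold lower (9.38 to 24.9), and Cxcl5 9.06, 1.08 and 2.82 CPM, 8.38-fold lower. Cxcl1 and Cxcl5 reached 5 CPM only at 0 h, so they could enter the counts against 0 h only as lower. For the 4 ligands both later libraries lay far below 0 h. Bcl3, an atypical inhibitor of NF-kB, had 31.4, 13.8 and 21.5 CPM and was the 1 gene of the list past the fold upwards at 30 h against 17 h, though its log2 ratio there was 0.43 after centring and -0.09 with the limit at 5%. The UMIs of Ccl2 sat in few cells: 24.8%, 8.29% and 11.6% of thinned cells held 1 or more, and the tenth of cells with the most held 77.7% of its UMIs at 0 h. Cxcl1 was found in 6.98%, 1.10% and 1.79% of cells, with up to 27 UMIs in 1 cell at 0 h and 1 at 17 h.

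Secreted matrix genes were in part lower at 17 h. Of 18 measured matrix glycoproteins, 5 were lower and 0 higher at 17 h (median log2 ratio -0.48). Of 11 collagen crosslinking and processing genes 5 were lower and 0 higher (median -0.58), and 2 were lower after centring. Over all genes 4.54% were lower and 1.40% higher, with a median of -0.11. Thbs1, a matricellular activator of TGF-beta, had 215, 91.9 and 77.5 CPM, 2.34-fold lower at 17 h, and was found in 58.0%, 33.9% and 31.3% of thinned cells. Fbln5, which helps assemble elastic fibres, had 50.9, 25.7 and 23.5 CPM, 1.98-fold lower. Both were at about the same level at 17 h and 30 h. Thbs2 was 139, 69.8 and 103 CPM, and Tgfbi, an adhesion protein induced by TGF-beta, 40.04, 21.7 and 30.2 CPM, each lowest at 17 h. Lox and Loxl1, which crosslink collagen and elastin, had 923, 603 and 533 CPM and 85.2, 51.1 and 47.7 CPM; Lox, at 1.53-fold lower, was under the fold with TMM factors (log2 ratio -0.54), and Loxl1 after centring (-0.43). Of 9 measured fibrillar collagen genes none was past the fold at 17 h and 1 was lower at 30 h than at 17 h. Outside the matrix, Slc2a1, the glucose transporter GLUT1, had 104, 50.8 and 69.5 CPM, and Rhob, a stress-responsive small GTPase, 61.4, 23.5 and 20.1 CPM, 2.61-fold lower at 17 h.

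The lists of other signalling pathways named here held between 4 and 18 measured genes each. Over all genes 1.40% were higher and 4.54% lower at 17 h than at 0 h. Of 4 measured Notch genes 2 were higher at 17 h, Hes1 and its ligand gene Jag1, which had 12.5, 19.2 and 13.3 CPM and was under the fold after centring (log2 ratio 0.57). Of 10 measured genes of the insulin-like growth factor axis 2 were higher, Igfbp7 and Irs1, the docking protein of the insulin receptor, with 3.19, 6.69 and 3.97 CPM. All 4 were nearer to 0 h again at 30 h. Of 18 measured targets of TGF-beta 2 were higher and 1 lower at 17 h: Inhba and Pmepa1, a feedback inhibitor of the pathway with 27.1, 41.6 and 29.6 CPM, against Tgfbi. Among 11 measured Wnt genes, Lgr4, a receptor for R-spondins, had 8.75, 16.2 and 10.5 CPM, and Dkk2, a secreted modulator, 9.02, 3.76 and 2.43 CPM, so they lay on opposite sides at 17 h. Plxna2, a semaphorin receptor, had 10.3, 17.2 and 11.01 CPM. With the mitochondrial limit at 5% the log2 ratio at 17 h was -0.06 for Lgr4 and -0.45 for Plxna2.

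Of 12 measured genes of PDGF and FGF signalling 1 was lower at 17 h and 2 of 11 at 30 h against 17 h. Over all genes 4.54% were lower in the first comparison and 1.12% in the second. Fgf7, a growth factor for epithelia, had 22.1, 14.6 and 12.4 CPM, and its log2 ratio at 17 h was -0.52 after centring, under the fold. The 2 listed genes lower at 30 h were feedback inhibitors of receptor signalling: Spry2 with 4.87, 5.10 and 2.56 CPM and Spred2 with 11.2, 10.3 and 6.78 CPM. Both were level up to 17 h. Of 13 measured glucocorticoid-responsive genes 5 were lower and 1, Hsd11b1, was higher at 17 h, but after centring 3 were lower and 4 higher (median log2 ratio -0.07). Sgk1, a kinase of ion transport, had 91.8, 59.7 and 54.8 CPM (after centring -0.47 at 17 h, under the fold) and Errfi1, an inhibitor of the EGF receptor, 25.4, 14.9 and 15.1 CPM. Of 19 measured contractile genes 4 were lower and 0 higher at 17 h, with a median log2 ratio of -0.37, but after centring 1 was lower and 1 higher, with a median of -0.13. Acta2, smooth muscle actin, had 120, 77.7 and 91.97 CPM, and Actg1, a cytoplasmic actin, 2207, 1372 and 1696 CPM. Both were lowest at 17 h, with log2 ratios under the fold after centring (-0.44 and -0.48). The summed smooth muscle and myofibroblast markers were lowest there too. Acta2 is itself the largest member of that sum, so the sum is not a separate observation. The part of cells with such markers in the levels of Acta2 and Actg1 was not tested. None of 31 measured proteasome genes was past the fold in either comparison, which says little for a list of this size beside the shares over all genes.

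**Figure D5:**
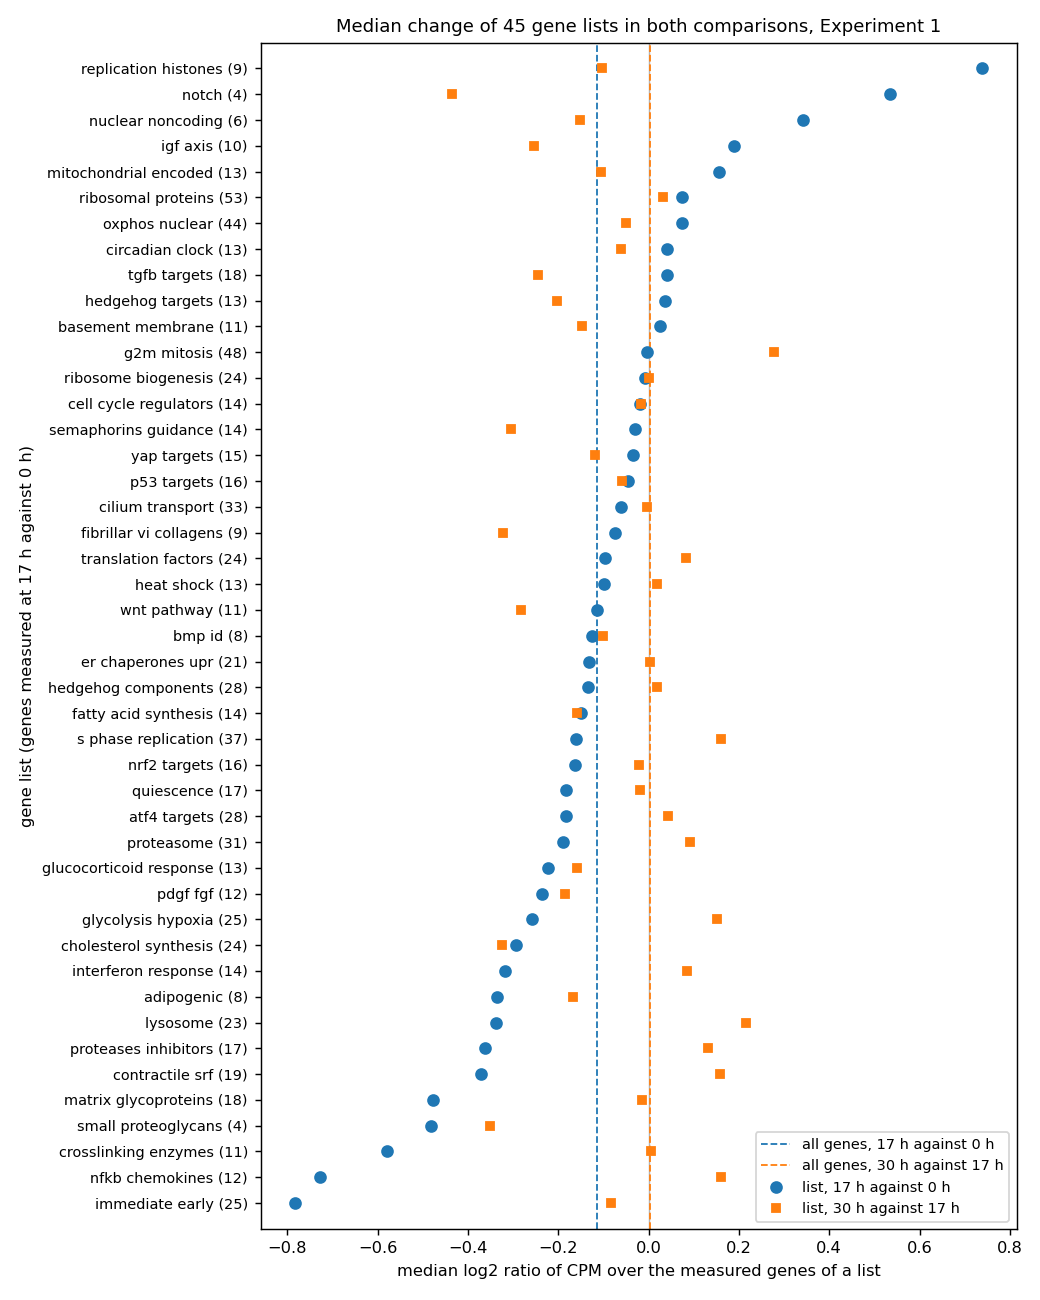
Median log2 ratio of CPM (horizontal axis) over the measured members of each of 45 gene lists, as circles for 17 h against 0 h and squares for 30 h against 17 h, with dashed lines for the medians of all measured genes. Immediate early genes (-0.78) and chemokines (-0.73) lay lowest at 17 h against 0 h, and replication histones highest (0.74).

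Few genes were higher at both later times. Rab21, an endosomal GTPase that traffics integrins, had 30.2, 63.5 and 76.1 CPM. Ybx3, a cold shock protein that binds mRNA and DNA, had 139, 262 and 350 CPM, and was found in 71.6%, 89.9% and 93.0% of thinned cells. Wtip, a LIM protein of cell junctions, had 13.6, 21.8 and 36.7 CPM. For each of the 3 the order was 0 h, 17 h, 30 h, and 30 h exceeded 0 h by 2.52-fold, 2.51-fold and 2.70-fold. Wtip was also past the fold at 30 h against 17 h, at 1.68-fold, but not after centring (log2 ratio 0.54). Of 60 listed replication histones, whose mRNAs mostly lack poly(A) tails, 9 were measured and 5 were higher at 17 h (median log2 ratio 0.74) and 5 at 30 h against 0 h. Over all genes 1.40% and 0.675% were higher in these comparisons. Hist1h1e, a linker histone, had 13.5, 22.5 and 23.6 CPM and Hist1h2ap 9.02, 15.6 and 15.5 CPM; members are near-identical, so the reads of each are uncertain. At the limit of 5% the number higher at 17 h was 2. Cells with at least 5 histone UMIs made 3.05%, 6.45% and 5.19% of thinned cells.

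Genes of mitosis were slightly higher at 30 h. None of 48 measured was past the fold at 17 h. At 30 h 4 were higher than at 17 h, beside 0.671% of all genes. In that comparison 45 of 48 had a log2 ratio above 0 and the median was 0.28. Plk1 was under the fold there after centring (0.51). Cenpf, a kinetochore protein, had 38.3, 38.6 and 58.5 CPM, Aspm, a spindle pole protein, 8.10, 9.27 and 14.0 CPM, Kif23, a motor of cytokinesis, 5.39, 5.92 and 9.0 CPM, and Plk1, a mitotic kinase, 8.75, 7.00 and 11.6 CPM. Leaving out the barcodes called doublets put Cenpf (log2 ratio 0.49), Aspm (0.48) and Kif23 (0.50) just under the fold. The share of thinned cells with at least 5 UMIs of the list was 32.2%, 30.6% and 32.4%, while their mean was 10.1, 10.3 and 12.2 UMIs per cell. The tenth of cells with the most held at least 14, 10.8 and 17.4 UMIs. Genes of S phase replication reached 5 UMIs in 65.4%, 54.7% and 60.8% of thinned cells.

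Genes of cholesterol synthesis were lower at 30 h than at 0 h. Of 24 measured, 13 were past the fold downwards, beside 3.35% of all genes. All 24 had a log2 ratio below 0, with a median of -0.62 against -0.09 over all genes. Of the listed genes 3 were lower at 17 h than at 0 h and 3 at 30 h than at 17 h, which after centring were 0 and 2. Idi1, the isomerase that makes dimethylallyl diphosphate, had 93.4, 92.9 and 53.4 CPM, and Hsd17b7, a ketosteroid reductase of the sterol pathway, 23.7, 20.3 and 12.8 CPM. Both were lower at 30 h than in either other library, 1.74-fold for Idi1 against 17 h. Dhcr7, which makes cholesterol from its last precursor, had 5.35, 3.04 and 2.13 CPM, and at 17 h was under the fold after centring (log2 ratio -0.56). The count of 13 was 8 with TMM factors, 6 after centring and 2 with the mitochondrial limit at 20%. At the 5% limit the log2 ratio of 30 h to 17 h was -0.31 for Idi1 in place of -0.80 and -0.23 for Hsd17b7 in place of -0.67. Among other genes lower at 30 h than at 17 h, Myadm, a membrane raft protein, had 103, 86.3 and 49.96 CPM, Snai2, a repressor of epithelial genes, 28.4, 29.9 and 18.6 CPM, and Rpa3, a subunit of the single-stranded DNA binding complex, 95.9, 82.0 and 46.5 CPM.

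Some ribosomal protein and mitochondrially encoded transcripts were high in the 17 h library. Over all genes 1.40% were past the fold upwards at 17 h. Of 53 measured ribosomal protein genes 6 were past the fold upwards at 17 h, among them Rps27 with 1377, 2662 and 1641 CPM. Of 13 mitochondrially encoded genes 4 were, among them mt-Atp8, a subunit of ATP synthase, with 35.8, 75.7 and 46.2 CPM, and mt-Nd6, a subunit of complex I on the strand opposite mt-Nd5, with 50.6, 149 and 96.4 CPM. Cells were kept by their share of UMIs in mitochondrially encoded genes, a limit that removed 26.5%, 43.5% and 37.2% of barcodes with at least 5000 UMIs. The levels of the mitochondrially encoded genes thus depend on that selection. Rps27, mt-Atp8 and mt-Nd6 were each highest at 17 h, the library that differed by transcript composition. After centring by GC content and length, 8 ribosomal protein and 5 mitochondrially encoded genes were past the fold upwards at 17 h. The median log2 ratios of these lists were then 0.27 and 0.24, in place of 0.07 and 0.16. Of 23 measured lysosomal genes, all had a log2 ratio below 0 at 17 h (median -0.34) and 19 had one above 0 at 30 h against 17 h (median 0.22), with 1 past the fold at 17 h. After centring these medians were -0.12 and 0.10. Gapdh, the glycolytic enzyme, was lowest at 17 h, with 1345, 1001 and 1558 CPM, and so was Tubb2b, a beta tubulin, with 92.6, 47.6 and 76.1 CPM; at 30 h against 17 h both were under the fold after centring (log2 ratios of 0.55 and 0.55).

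In Experiment 2 without Dox (11658 cells at 0, 19 and 30 h, with another software version and gene annotation), Gli1 had 0.035, 6.60 and 16.5 CPM and Ptch1 2.45, 24.2 and 54.8 CPM. There both were highest at 30 h, whereas in Experiment 1 both were highest at 17 h. Col4a1 had 18.6, 76.6 and 206 CPM and Inhba 29.2, 43.8 and 81.1 CPM, again highest at 30 h. Fos had 6.20, 5.75 and 8.57 CPM and Ier2 39.8, 58.7 and 65.4 CPM, so their high level at 0 h in Experiment 1 had no counterpart. Of 21 early genes measured in Experiment 2, 0 were lower and 3 higher at 19 h than at 0 h. Their median log2 ratio was 0.25. Of all 8013 genes measured there, 156 were lower and 1166 higher, with a median of 0.295. Ccl2 had 58.2, 29.1 and 15.9 CPM and was highest at 0 h in both. The difference between the experiments was not tested.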

How the data were processed

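The values deposited by the authors are UMI counts per gene and barcode of 3′ v3.1 libraries, without normalization. Per the submitters' processing notes they were made with Cell Ranger on mouse build mm10, and per the file headers with software version 3.1.0 and 31054 features. Strand use and the barcode filter are not given in the sources used here. The members and the 45 gene lists were chosen with earlier results of these data known. UMIs of kept cells were summed per library, to between 19422658 and 29144225, where 1 UMI is worth 0.0343, 0.0515 and 0.0427 CPM at 0, 17 and 30 h and a count of 0 of UMIs or cells is taken to allow 3. Intervals are exact: Poisson for levels, conditional binomial for ratios and Clopper-Pearson for shares, all at 95%, from Python 3.11.15 with scipy 1.17.1 and numpy 2.4.6. Cells were thinned to 10000 UMIs, which left 917, 543 and 559. Scrublet in scanpy 1.11.5 called 14, 23 and 11 doublets, which were kept and left out in an alternative. Named genes were the pathway genes and the added feature, the 15 highest and 15 lowest ratios of each comparison among genes with at least 20 CPM, and up to 5 members of each list by size of ratio. Not every gene that this rule names is described, and 1 of them is not reported here. Alternatives were TMM factors from edgeR 4.0.16 and median-of-ratios factors, the low-level filter, the mitochondrial limit, doublets, a mean over cells, the thinning depth, the fold and, added after seeing the data, centring by GC content and length (GENCODE transcripts matched 31011 features). The counting steps were tested on simulated data.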

Additional observations from a re-analysis of the deposited data

Results flagged for a closer look

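For 15 differences the direction in Experiment 1 was opposite to that in Experiment 2 without Dox. Each was past 1.5-fold in both experiments, relative to the median of all genes in its comparison. Only the pathway genes, the added feature and the genes of highest and lowest ratio were searched, so other opposite differences are not counted. With 1 library per time and experiment the difference between the experiments was not tested. Log2 ratios of Experiment 1 are given first. From 17 h (Experiment 1) or 19 h (Experiment 2) to 30 h, Gli1 was -0.99 and 1.32, Ptch1 -1.11 and 1.18, Col4a1 -1.07 and 1.43 and Col4a2 -0.95 and 1.30. So these 4 genes were lower at 30 h in the first experiment and higher in the second. In the same comparison Rps27rt was -1.18 and 1.03, Nme2 0.93 and -0.50 and Vkorc1 0.62 and -0.29. The median over all genes there was 0.0029 in Experiment 1 and 0.324 in Experiment 2. The levels of Nme2 were very unlike: 25.8 and 49.2 CPM at 17 and 30 h in Experiment 1, but 3367 and 2386 CPM at 19 and 30 h in Experiment 2. Whether both annotations counted the same reads for Nme2 was not tested. From 0 h to 17 or 19 h, the early gene Dusp1 was -1.54 and 1.03. These ribosomal protein and mitochondrially encoded genes were higher at 17 h in Experiment 1 and lower at 19 h in Experiment 2: mt-Nd6 with 1.56 and -0.98, mt-Atp8 with 1.08 and -2.17, mt-Nd3 with 0.93 and -0.59, mt-Nd4l with 0.61 and -1.66, Rps27 with 0.95 and -0.90 and Rps29 with 0.93 and -0.98. Cells of both experiments were kept by their share of UMIs in mitochondrially encoded genes, so the levels of those genes depend on that selection. Usp50 was 0.90 and -1.41. The 19 h library of Experiment 2 was shallow, with a median of 8025 UMIs per cell, and the software version and feature list differed between the experiments; their part was not tested.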

How the results depend on the processing

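Of 9066 alternative values of 719 gene ratios, 7561 stayed within their counting interval, 1493 moved out of it, and for 12 a ratio past the fold changed sign. Sign changes of ratios under the fold are not counted in the 12. Of these 12, 11 came with the mitochondrial limit at 5%, which left 120, 67 and 69 cells: Igfbp7 (-0.574), Sox9 (-0.232), Lgr4 (-0.062), Hes1 (-0.136) and Plxna2 (-0.446) at 17 h against 0 h, Gli3 (0.172), Bcl3 (-0.091), Igfbp7 (0.106) and Sox9 (0.208) at 30 h against 17 h, and Inhba (-0.603) and Isg15 (0.732) at 30 h against 0 h. Isg15 was 0.01 there as a mean over cells. The cause was not tested.

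Counts of genes higher and lower are given for 17 h against 0 h, 30 h against 17 h and 30 h against 0 h in turn. At the 5% limit they were 356 and 1349, 728 and 1028, and 315 and 1604, with 1 Hedgehog target higher at 17 h and 2 lower at 30 h. Without the filter on low values they were 2929 and 2078, 1670 and 2113, and 2068 and 2203, with 15 chemokine and NF-kB genes lower. At 20 CPM they were 66 and 199, 19 and 40, and 27 and 137, with 2 Hedgehog targets higher and 2 lower. A fold of 2 gave 30 and 45, 1 and 14, and 9 and 43; a counting bound past 1.5-fold gave 63 and 107, 5 and 31, and 20 and 103. TMM factors gave 268 lower at 17 h, and 97 higher and 187 lower at 30 h against 0 h. Median-of-ratios factors gave 214 and 224 at 17 h, and 104 and 184 at 30 h against 0 h. Centring gave 205 and 159 at 17 h, 26 higher at 30 h against 17 h, 110 and 171 at 30 h against 0 h, and 11 early genes lower at 17 h.

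The share of cells with a Gli1 UMI was 0.75% at 0 h without thinning, 5.955%, 15.3% and 22.2% at 17 h at 5000 UMIs, 20000 UMIs and without thinning, and 6.13% and 13.8% at 30 h at 20000 UMIs and without thinning. No paired analysis was possible because each time has 1 library. No library could be left out for the same reason.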
